A study of Mus musculus with 98 samples.

Results

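The genes described here are 78 mouse genes named for proteins of the cytosolic ribosome. Their symbols are Rpl or Rps followed by digits, with at most an a, l or x after them, and they occur in all 6 deposited count tables. By symbol they comprise 47 genes of the large subunit and 31 of the small subunit, out of 24754 genes common to the tables. The annotation calls Rps4l, counted among the 31, a transcribed processed pseudogene. The symbol alone made the choice, so no measured value entered it. Rpl6l met the pattern in 4 of the 6 tables and was not included, and symbols outside the pattern, such as Rplp2, Rpsa and Fau, were kept as a list for comparison.

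The study measured gene-level RNA-seq counts in 98 libraries of 22 groups, in cultured hippocampal neurons and in mouse hippocampus, after a PhP.eB virus that overexpresses the acetyl-CoA synthetase ACSS2 (upACSS2) or its empty vector. Primary embryonic hippocampal neurons of the CD1 strain received virus on culture day 5, were washed on day 7 and were then given a tau preparation named hAD-tau or phosphate-buffered saline (PBS). The 4 combinations of virus and tau were collected unstimulated on day 9 or day 21 and stimulated on day 21, with 3 libraries each, and 4 hAD-tau and 3 PBS libraries came from day 21 cultures without virus. The stimulus is not given in the sources used here. The mice were male. Aged C57BL6 mice of 22 to 23 months gave whole hippocampus 2 months after virus, following remote recall of a fear context, with 12 per virus. C57BL6 mice of 10 months gave dorsal hippocampus 2 weeks after virus, following the acquisition of fear conditioning, with 6 upACSS2 and 5 vector mice. PS19 mice, which carry a mutant human tau transgene under the prion protein promoter, gave hippocampus at 3.5 months, 1 month after injection, or at 8.5 to 9 months, 6 months after injection, following recall of a fear context, with 5 per virus and time. All PS19 groups carried the transgene, so none of them is a control for it.

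Groups follow the sample titles. The treatment tag goes against the title for vector with hAD-tau and for upACSS2 with PBS in the unstimulated cultures of both days, for the PS19 upACSS2 group at 1 month and for 1 PS19 vector library at 1 month. The PS19 upACSS2 group at 1 month is also tagged as whole hippocampus and the other PS19 groups as dorsal, so dissection and virus cannot be told apart there. Acss2 itself ran from 1488 to 5462 CPM (counts scaled to a common library size) in the upACSS2 cultures and did not exceed 57.9 CPM in the vector cultures. In PS19 mice it ran from 60.1 to 1465 CPM with upACSS2 at 1 month against 51.5 to 66.3 CPM with vector, and from 44.9 to 237 CPM against 43.1 to 56.0 CPM at 6 months. The ranges overlapped at both times, so Acss2 was not raised above the vector range in every PS19 mouse given upACSS2. In 10-month mice it ran from 49.9 to 59.3 CPM against 42.3 to 48.8 CPM, and in aged mice the groups overlapped, at 46.7 to 61.5 against 39.96 to 53.7 CPM. Libraries held between 5075100 and 39985500 counts. The neuron markers were detected in every group, and astrocyte and oligodendrocyte markers were detected in the neuronal cultures as well.

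Ribosomal proteins coat the ribosomal RNA of the small subunit, which reads the messenger, and of the large subunit, which forms the peptide bond. A cell needs them in about equal amounts, and their messengers are among the most abundant of the cytoplasm, including in neurites. Their transcripts typically begin with a cytosine followed by an unbroken run of pyrimidines, the terminal oligopyrimidine (TOP) motif, through which the TOR kinase and LARP1 regulate their translation. A few genes have a close copy with restricted use, such as Rpl3l in striated muscle, and Rpl10l and Rpl39l in the testis, while Rps27l is a widely expressed copy of Rps27 that responds to p53.

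Sequence at the start of these genes is shown for 9 members that carry the results below, as 30 bases centred on the annotated transcription start, with 15 bases on each side, from RefSeq on build GRCm38.p6. The capitals mark the longest pyrimidine run of at least 5 bases that begins with C within 10 bases of the start. Where the table gives several starts, 2 for Rps21 and Rps27l and 3 for Rpl35a, the start with such a run is shown and the others have none. Rps3, also described below, has 1 start and no such run.
Rps21, chr2:180257364-180257393, plus strand: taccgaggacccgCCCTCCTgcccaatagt
Rps27l, chr9:66946071-66946100, plus strand: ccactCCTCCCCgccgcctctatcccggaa
Rpl15, chr14:18270972-18271001, minus strand: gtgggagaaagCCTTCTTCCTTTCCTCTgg
Rpl39, chrX:37085208-37085237, minus strand: cctaagctccgcctctagcgaCTTCTTCTa
Rpl35a, chr16:33056467-33056496, plus strand: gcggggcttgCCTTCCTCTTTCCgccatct
Rps23, chr13:90923107-90923136, plus strand: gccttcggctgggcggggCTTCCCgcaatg
Rps18, chr17:33955651-33955680, minus strand: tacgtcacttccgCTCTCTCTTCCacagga
Rps7, chr12:28635939-28635968, minus strand: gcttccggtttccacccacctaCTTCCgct
Rps2, chr17:24720048-24720077, plus strand: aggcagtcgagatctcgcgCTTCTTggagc
The run of Rpl15 is 17 bases long, that of Rpl35a 13 bases and that of Rps18 11 bases, and that of Rps7 is the minimum of 5. The RefSeq promoter table held 58 of the 78 members. Such a run was present in 38 of the 58, or 65.5%, against 34.4% of the 27025 symbols of the table. The 300 bases around the start, 250 before and 50 after, held CCGGAAG, a core bound by ETS factors such as GABPA, on either strand in 23 of the 58 members, or 39.7%, against 9.93% of all symbols. They held ATGGCGG, a core of the YY1 motif that can overlap a start codon, in 10 members, or 17.2%, against 4.69%. TATAAA, the TATA box, was found in 6 members, or 10.3%, against 15.7% of all symbols. These matches describe letters in the windows and are not evidence of binding.

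In the GENCODE vM21 annotation all 78 genes had a model, spread over 19 chromosomes with at most 13 on one. Their exons joined over all isoforms covered between 383 bases, in Rpl36, and 6270 bases, with a median of 1736.5 bases. On a scale of CPM per kilobase of exon, averaged over the 22 groups, Rps15, of the small subunit head, was highest at 412, followed by the large subunit genes Rpl4 at 278 and Rpl8 at 235. At the low end were the testis-type copies Rpl10l at 0.0011 and Rpl39l at 0.081, the muscle-type Rpl3l at 0.146, and Rpl32l at 0.475, all in CPM per kilobase.

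The common level was read as the mean log2 CPM over all 78 genes in a library. It was highest in the cultures without virus, at 6.66 ± 0.08 (SD, n = 4) with hAD-tau and 6.50 ± 0.31 (n = 3) with PBS, and lowest in PS19 vector mice at 6 months, at 5.39 ± 0.15 (n = 5). The tables were processed with different gene annotations and normalised separately, so levels are not compared across them by a test. The 78 genes together took 1.47% of all counts in the cultures without virus, 0.925% in the unstimulated virus cultures, 0.916% in the stimulated cultures, 0.777% in aged mice, 0.869% in 10-month mice and 0.692% in PS19 mice.

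**Figure D1:**
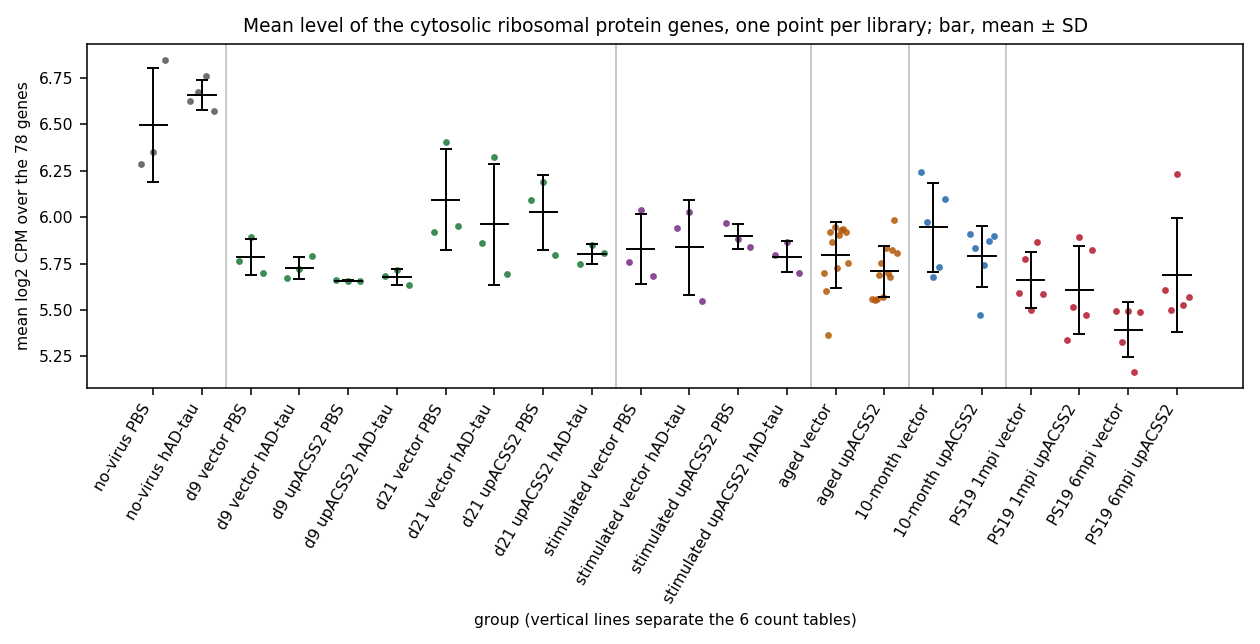
Mean log2 CPM over the 78 ribosomal protein genes in each of the 98 libraries, by group, with the group mean and SD. The day 9 groups are tight, the day 21 vector groups each have 1 library well above the others, and 1 upACSS2 library of PS19 mice at 6 months stands at 6.23.

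Within a table the genes moved as a block from library to library. The correlation of a member's log2 CPM with the mean of the other members had a median over members of 0.94 across the 24 unstimulated and the 12 stimulated culture libraries, 0.92 across 20 PS19 libraries, 0.90 across the 7 libraries without virus, 0.89 across 11 libraries of 10-month mice and 0.88 across 24 libraries of aged mice. These values are descriptions, since the genes of a library share its depth and composition. Rps4l, which the annotation calls a transcribed processed pseudogene, had the lowest correlation in 3 of the 6 tables, at 0.34 in the unstimulated cultures, 0.14 in PS19 mice and -0.65 in 10-month mice. In the other tables the lowest were Rps27l without virus, at -0.86, Rps27 in stimulated cultures, at -0.34, and Rps10 in aged mice, at -0.52, the last pair at about 1 to 2 CPM.

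Several members differed between tables far more than within them. The 3 mouse tables and the table without virus list 55367 rows, of which 319 have symbols of ribosomal protein pseudogenes, while the virus-culture tables list 25239 rows and 9 such symbols. These pseudogene rows held few counts: 0.0056% in the unstimulated and 0.0052% in the stimulated virus cultures, 0.038% without virus, and from 0.0057% to 0.013% in the mouse tables. Rpl26, of the large subunit near the exit tunnel, averaged 0.027 CPM in the unstimulated and 0.025 CPM in the stimulated cultures but 91.2 CPM in the cultures without virus and between 105 and 139.6 CPM in mice. Rpl24 did the opposite, with 59.3 and 62.6 CPM in the virus cultures, 0.631 CPM without virus, and at most 0.149 CPM on average in the mouse tables. Rps27, of the small subunit, averaged 1.84 and 1.79 CPM in the virus cultures against 188 CPM without virus, and Rpl30 and Rpl34 were low in the same tables, at 3.69 and 2.63 CPM in the unstimulated cultures against 122 and 67.0 CPM without virus. Rpl13a and Rps10 were instead high in the virus cultures, at 335 and 78.1 CPM unstimulated, and low in the table without virus, at 14.1 and 3.28 CPM. These genes have many near-identical processed copies, so their reads may be split or dropped in ways that differ with the annotation, and this was not tested. Their levels are therefore uncertain, although comparisons within 1 table are made with 1 set of rows.

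Of the paralog pairs, Rpl3 averaged between 169 and 279 CPM over the 6 tables, while Rpl3l averaged between 0.147 and 0.655 CPM. Rpl10 averaged between 89.6 and 146 CPM, and Rpl10l had 3 counts in all, in the stimulated cultures. Rpl39, a short protein of the exit tunnel, averaged 86.1 CPM without virus, 52.3 and 50.1 CPM in the unstimulated and stimulated virus cultures and from 17.1 to 30.3 CPM in mice, and its copy Rpl39l stayed between 0.041 and 0.115 CPM. Rps27l averaged 51.2 CPM in the cultures without virus and 32.6 and 30.7 CPM in those with virus, against averages from 10.1 CPM in aged to 13.1 CPM in PS19 mice.

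Among the 66 members with a sufficient level in every table, the level relative to the mean of the members in the same library varied most over the 22 groups for Rps27l, with an SD of 0.66 on the log2 scale. Its value ran from -2.45 in aged upACSS2 mice to -0.47 in day 21 vector cultures with PBS. Rpl19 followed with an SD of 0.57, from -0.69 in 10-month vector mice to 0.98 in stimulated vector cultures with hAD-tau. Rpl35a had an SD of 0.56, from -1.20 in day 9 upACSS2 cultures with PBS to 0.35 in PS19 upACSS2 mice at 6 months. Rpl39 had an SD of 0.56, from -1.87 to -0.03, and Rps29, a small zinc-binding protein of the small subunit, an SD of 0.49, from -2.32 to -0.65. Rpl17 and Rps24 were among the steadiest, with SDs of 0.075 and 0.087. Part of each range lies between tables, which differ in annotation as well as in tissue.

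The first comparison asks how the ribosomal protein genes differed between day 9 and day 21 in these bulk cultures. The days differ in the age of the culture and in the time since virus and since hAD-tau or PBS. In each condition most of the members that changed rose. In vector cultures with PBS, 38 members rose and 2 fell out of 73 tested at an adjusted p of 0.05 (edgeR), where 57.7% of all 14863 genes tested changed, 30.6% rising and 27.1% falling. The rising share, 38 of 73, was above that background, the median log2 fold change of the members was 0.37 against 0.054 over all genes, and 68 of 73 were above 0 against 53.7% of all genes. In upACSS2 cultures with PBS, 44 rose and 1 fell, with a median of 0.41, where 28.5% of all genes rose and 25.8% fell. With hAD-tau the rising shares were at or below the background: 20 rose and 1 fell in vector cultures (27.7% of all genes rose and 24.9% fell, median 0.30) and 11 rose and 2 fell in upACSS2 cultures (27.2% and 26.4%, median 0.16). Whether the rise differed between PBS and hAD-tau was not tested. The PBS and hAD-tau comparisons have separate libraries at both days.

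**Figure D2:**
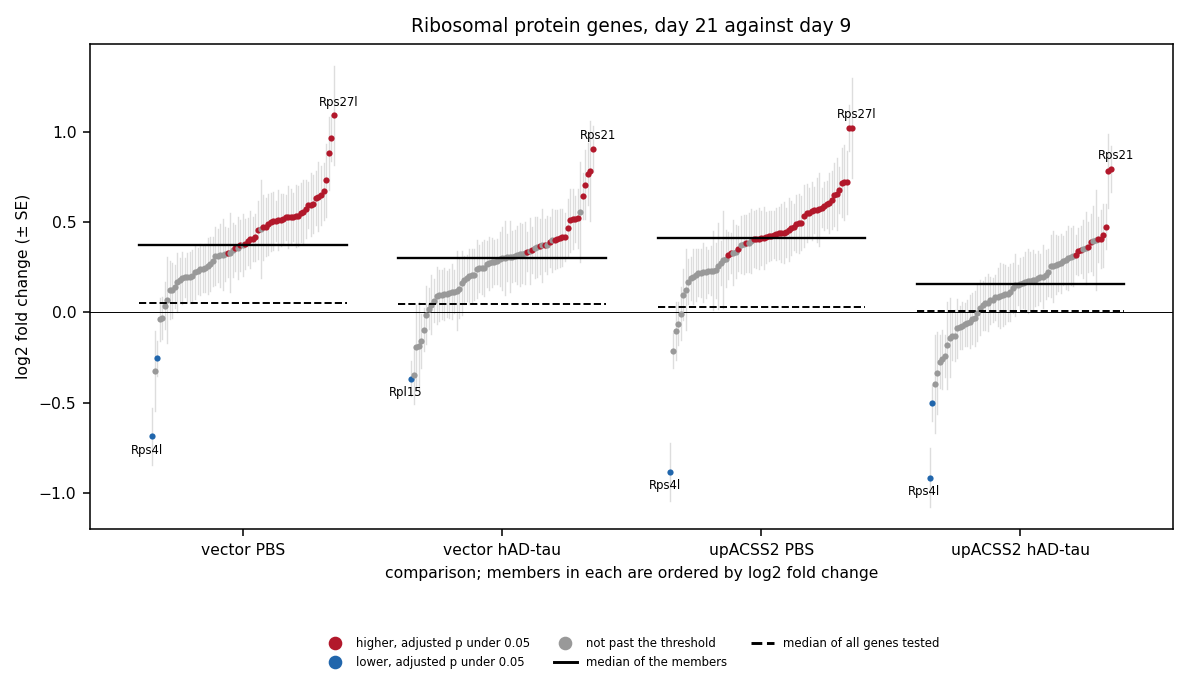
Log2 fold change with its SE, day 21 against day 9, for each tested member in order of size, in 4 columns for the combinations of virus and tau; red points rose and blue points fell at an adjusted p of 0.05, the solid line is the members' median and the dashed line the median of all genes. The members' medians are 0.37, 0.30, 0.41 and 0.16, each above the dashed line.

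Rps21, a protein of the small subunit found in eukaryotes (chr2:180257377-180258445, plus strand), had 111, 117 and 105 CPM in the day 9 vector cultures with PBS and 190.1, 267 and 193 CPM at day 21. Over all 12 libraries of each day it ran from 88.9 to 117 CPM at day 9 and from 158 to 267 CPM at day 21, so the days did not overlap. Its log2 fold change in vector cultures with PBS was 0.97 (SE 0.13, adjusted p = 2.3e-06 by edgeR), and in the other conditions it was 0.90 for vector with hAD-tau, 1.02 for upACSS2 with PBS and 0.80 for upACSS2 with hAD-tau. Rps21 and Rpl13a were the members that stayed past the threshold in all 4 conditions with any 1 library left out.

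Rps27l (chr9:66946086-66949516, plus strand) had 25.4, 26.4 and 21.6 CPM at day 9 and 32.0, 74.0 and 50.3 CPM at day 21 in vector cultures with PBS. Its log2 fold change there was the largest of the members at 1.09 (SE 0.27, adjusted p = 0.0020 by edgeR), with a wide spread at day 21. It also rose with upACSS2 and PBS, by 1.02, and with vector and hAD-tau, by 0.78 on the log2 scale. With upACSS2 and hAD-tau its value was 0.40 (adjusted p = 0.23 by edgeR), the days overlapped, and it was not called. Rps29 (chr12:69157722-69159186, minus strand) had 18.4, 20.02 and 15.7 CPM at day 9 and 37.8, 37.2 and 25.0 CPM at day 21, a log2 fold change of 0.88 (adjusted p = 0.00095 by edgeR, SE 0.20). It rose by 0.72 with upACSS2 and PBS and by 0.78 with upACSS2 and hAD-tau on that scale. With vector and hAD-tau its value was 0.30 (adjusted p = 0.23 by edgeR), and the days overlapped.

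The 8 members that rose in all 4 conditions were Rps21, Rps14, Rpl7a, Rpl9, Rpl13a, Rpl19, Rpl28 and Rpl35a, drawn from both subunits. Of all 14863 genes 17.6% rose in all 4, so the members' share, 8 of 73, was not above the background. Rps14, a protein of the small subunit platform, rose by 0.77 with vector and hAD-tau and by 0.72 with upACSS2 and PBS on the log2 scale. Rpl13a, which also acts in interferon-dependent silencing of translation, rose by 0.53 in vector cultures with PBS and by 0.48 in upACSS2 cultures with hAD-tau. Over the 4 conditions 48 of 73 members rose in at least 1, where 40.6% of all genes did. Rpl15 and Rps4l were the 2 members that fell in at least 1, where 35.6% of all genes did, and neither fell in all 4.

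Rpl15, a protein of the large subunit core (chr14:18267823-18271391, minus strand), had 178, 188 and 181 CPM at day 9 and 137, 184 and 138 CPM at day 21 in vector cultures with PBS, where replicate 2 of day 21 lay among the day 9 values. Its log2 fold change was -0.25 there, -0.37 with vector and hAD-tau and -0.50 with upACSS2 and hAD-tau (SE 0.10 and adjusted p = 0.00024 by edgeR in the last). Rps4l (chr6:148354656-148355598, plus strand) had 8.68, 8.87 and 9.94 CPM at day 9 and 6.48, 6.08 and 4.57 CPM at day 21, with no overlap. Its log2 fold change was -0.69 there, -0.88 with upACSS2 and PBS and -0.92 with upACSS2 and hAD-tau.

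Of the tested members with a RefSeq promoter entry, 34 had the pyrimidine run shown above and 19 did not. In vector cultures with PBS, 14 of the 34 and 13 of the 19 were called, with median log2 fold changes of 0.34 and 0.39. With vector and hAD-tau it was 10 and 7, with medians of 0.27 and 0.34, with upACSS2 and PBS 17 and 13, with medians of 0.39 and 0.43, and with upACSS2 and hAD-tau 8 and 2, with medians of 0.10 and 0.18. The difference between members with and without a run was not tested. In vector cultures with PBS the small subunit genes had a median of 0.46 (31 genes) and the large subunit genes 0.34 (42 genes). The 10 members with up to 1000 bases of exon had a median of 0.52 and the 63 longer ones 0.36, and the correlation of change with log2 length across these 73 genes was -0.27, where genes are not independent replicates.

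Other lists were read over the same interval in vector cultures with PBS. There 8573 of all 14863 genes were called by edgeR, with the rising and falling shares given above. Of 73 nuclear genes of the respiratory chain 56 rose and 0 fell, with a median log2 fold change of 0.40, and of 78 mitochondrial ribosomal protein genes 37 rose and 0 fell, with a median of 0.26. Of the 11 tested cytosolic ribosomal protein genes outside the symbol pattern 5 rose and 0 fell, among them the stalk protein Rplp2 by 0.44 and the ubiquitin-like fusion Fau by 0.36. Of 23 other translation genes with TOP messengers 4 rose and 5 fell, with Tpt1 at 0.55 and the elongation factor Eef2 at -0.37. Of 32 ribosome biogenesis genes 1 rose and 8 fell, with nucleolin, Ncl, at -0.29. For the TOP and biogenesis lists the rising and falling shares were both below those of all genes. Of 18 genes of TOR signalling and its TOP regulators 4 rose and 7 fell: Mycn was at -2.20, Larp1 at -0.67 and Mtor at -0.46, while Eif4ebp2 was at 0.39 and Myc at 0.62. Of 37 proteasome genes 2 rose and 12 fell, a falling share near that of all genes.

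Glial markers also differed between the days. The summed astrocyte markers ran from 2301 to 2867 CPM at day 9 and from 3717 to 20634 CPM at day 21, those of oligodendrocyte precursors from 157 to 297 against 809 to 1650 CPM, and those of oligodendrocytes from 36.2 to 45.8 against 189 to 1249 CPM, while neuron markers ran from 8537 to 9620 and from 5863 to 10869 CPM. Their part in the result was not tested, and in bulk samples fewer cells of a type and less RNA per cell cannot be told apart. In 3 day 21 libraries the ribosomal RNA precursor Rn45s took 10.98% (vector with PBS, replicate 2), 7.93% (upACSS2 with PBS, replicate 1) and 4.10% (vector with hAD-tau, replicate 2) of counts, against 0.42 to 1.89% in the other day 21 libraries. Without these 3 libraries 31 members were called in vector cultures with PBS, 9 in vector with hAD-tau, 54 in upACSS2 with PBS and 29 in upACSS2 with hAD-tau, and the medians were 0.20, 0.06, 0.39 and 0.16. Leaving out replicate 2 of the day 21 cultures alone lowered the count to 16 for vector with PBS, to 7 for vector with hAD-tau and to 21 for upACSS2 with PBS. In vector cultures with hAD-tau it was also 10 without day 9 replicate 1, 12 without day 9 replicate 2 and 42 without day 21 replicate 3. In upACSS2 cultures with hAD-tau it was 8 and 6 without day 21 replicates 1 and 2, and 8 and 5 without day 9 replicates 1 and 3. These counts are not split by direction, and the share of all genes called in the same fits is not given. Whether the rising share stayed above the background in these fits was not tested.

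The next comparison asks what overexpressed ACSS2 did at day 9, 4 days after the virus was added. In cultures with PBS 20 members fell and 0 rose out of 73 tested at an adjusted p of 0.05 (edgeR), where 5.35% of all 14022 genes fell and 4.9% rose, 10.2% in all. The differences were small: the median log2 fold change of the members was -0.09, against -0.0017 over all genes, and 19 of 73 were above 0, against 49.5% of all genes. The mean log2 CPM over the 78 genes was 5.66 ± 0.0036 (SD, n = 3) with upACSS2 and 5.78 ± 0.10 (n = 3) with vector, and all 3 upACSS2 libraries lay below all 3 vector libraries. The groups did not overlap in 28 members that were lower and 2 that were higher, where 14.2% and 16.6% of all genes did not.

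Rpl39 (chrX:37082520-37085402, minus strand) fell most. It had 54.3, 56.3 and 50.8 CPM with vector and 36.3, 36.1 and 39.1 CPM with upACSS2, a log2 fold change of -0.54 (adjusted p = 0.0019 by edgeR, SE 0.09), with no overlap. With hAD-tau it had 37.6, 54.8 and 49.4 CPM with vector and 49.7, 41.8 and 39.9 CPM with upACSS2, and these groups overlapped. The difference between the effects of the virus in hAD-tau and in PBS cultures was 0.43 for Rpl39 (adjusted p = 0.10 by edgeR) and did not pass the threshold.

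Rpl35a, mutated in some families with Diamond-Blackfan anaemia (chr16:33056453-33060189, plus strand), had 28.5, 32.9 and 25.9 CPM with vector and 21.2, 23.1 and 21.2 CPM with upACSS2. The groups did not overlap, and the log2 fold change was -0.42 (adjusted p = 0.0075 by edgeR). Rps23, a protein of the decoding centre (chr13:90922958-90924950, plus strand), had 60.1, 68.6 and 55.9 CPM with vector and 48.3, 45.8 and 48.8 CPM with upACSS2. These did not overlap either, and the log2 fold change was -0.37 (adjusted p = 0.0075 by edgeR).

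The other members that fell were the 5S-particle proteins Rpl5 and Rpl11, the ubiquitin fusion Rps27a, and Rpl3, Rpl13a, Rpl15, Rpl23, Rpl36a, Rpl38, Rpl41, Rps3, Rps6, Rps9, Rps10, Rps14, Rps18 and Rps21. With any 1 library left out, 8 of the 20 were called each time: Rps21, Rpl15, Rps23, Rpl35a, Rps3, Rpl39, Rpl13a and Rps14. The count was 8 without upACSS2 replicate 1, 13 without upACSS2 replicate 2, 12 without vector replicate 1 and 8 without vector replicate 2. It was 0 when all 24 unstimulated libraries, with the wider spread of day 21, shared 1 estimate of the spread. The share of all genes called in these fits is not given. Of the members with a pyrimidine run 12 of 34 fell, with a median of -0.15, and of those without 5 of 19, with a median of -0.07.

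**Figure D3:**
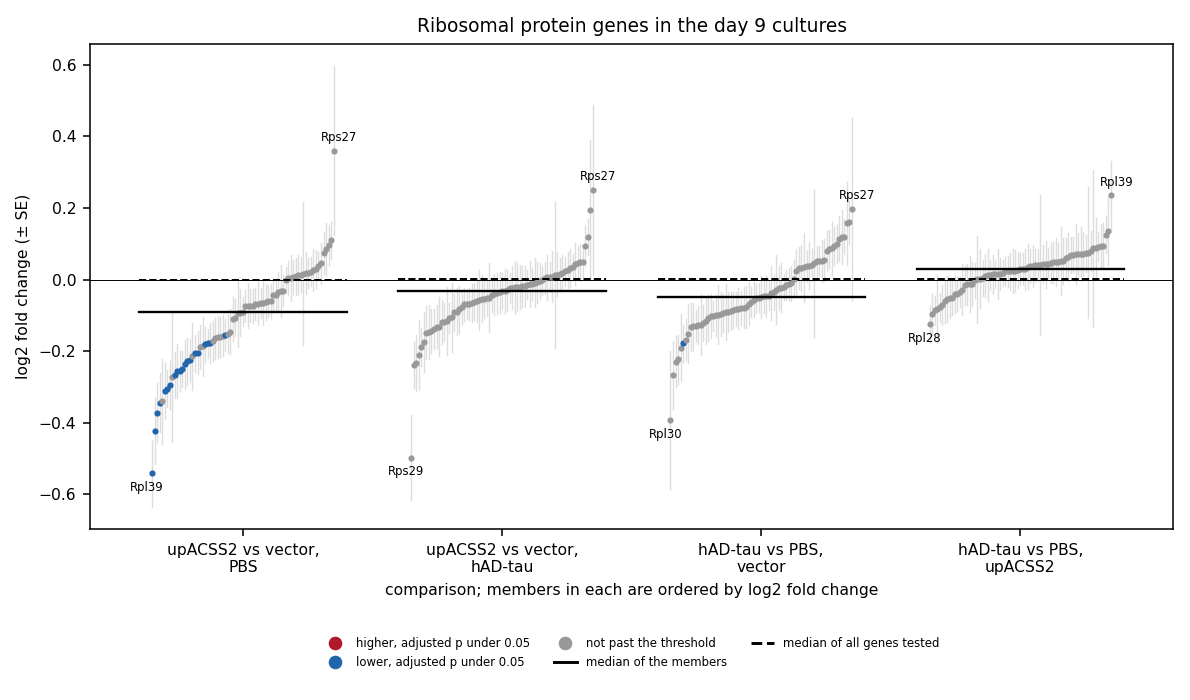
Log2 fold change with its SE for each tested member in the 4 comparisons of day 9 cultures, in order of size, with colours and lines as in the plot of day 21 against day 9. Blue points, the members that fell, appear for upACSS2 against vector in PBS (20 genes) and for hAD-tau against PBS in vector cultures (Rps14).

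Genes of other lists fell in the same comparison: 28 of 73 of the respiratory chain, 18 of 36 of the proteasome and 8 of 78 of the mitochondrial ribosome. Of all 14022 genes, 1437 were called in either direction. Of the 11 cytosolic ribosomal protein genes outside the pattern 5 fell and 1 rose. Markers of other cell types moved too. Of the 4 markers of oligodendrocyte precursors 3 fell and 0 rose, with a median log2 fold change of -0.63, and all 4 markers of proliferating cells fell, summing to 38.7 to 42.8 CPM with upACSS2 against 50.2 to 67.6 CPM with vector. The neuron markers summed to 9188 to 9579 CPM with upACSS2 and 8537 to 8836 CPM with vector, with 4 of 10 called higher and 1 lower. The part of these markers in the result was not tested.

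In the presence of hAD-tau at day 9, upACSS2 changed 0 of 73 members, where 0.692% of all genes were called by edgeR. The members' median was -0.03, and 12 had an unadjusted p under 0.05, which held for 12.6% of all genes. Among members whose mean log2 CPM reached 3, the lowest was Rps29 at -0.50 (SE 0.12, adjusted p = 0.052 by edgeR) and the highest Rps20 at 0.12. DESeq2 called 1 member here. Comparing hAD-tau with PBS in vector cultures, which reuse the vector and PBS libraries of the comparison above, 1 member fell and 0 rose where 2.27% of all genes fell and 4.28% were called in all. That member was Rps14, with 237, 258 and 229 CPM with PBS and 213, 199 and 229 CPM with hAD-tau, a log2 fold change of -0.18 (adjusted p = 0.049 by edgeR). The groups overlapped by less than 1 CPM, and the count was 13 without hAD-tau replicate 3, 2 without PBS replicate 3 and 0 without any 1 of the other 4 libraries. In upACSS2 cultures 0 members changed with hAD-tau (0.349% of all genes), the median was 0.03, and 5 members had an unadjusted p under 0.05 against 9.05% of all genes. DESeq2 called none in either the upACSS2 cultures or the interaction. The interaction of virus and tau called 0 members (0.663% of all genes) and 14 at an unadjusted p under 0.05, against 17.2% of all genes, with 8 called without vector replicate 3 of hAD-tau. For the DESeq2 counts and those with a library left out, the share of all genes called is not given.

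At day 21 none of the 73 tested members was called in any of the 4 comparisons of virus or tau, in which edgeR called between 0 and 4 of 14639 genes (0.0137% for upACSS2 in PBS, 0.0273% for upACSS2 in hAD-tau, and 0 for tau). At an unadjusted p under 0.05 there were 1, 2, 1 and 0 members, where 16.6%, 10.7%, 9.3% and 6.36% of all genes passed. The members' medians were -0.11 for upACSS2 in PBS, -0.18 for upACSS2 in hAD-tau, -0.17 for tau in vector and -0.22 for tau in upACSS2. Without the 3 libraries rich in Rn45s the medians for upACSS2 changed sign, to 0.05 and 0.05, and those for tau were -0.19 and -0.21. Of the members at that level, a mean log2 CPM of 3 or more, Rps29 was lowest for upACSS2 in PBS, at -0.50, Rps27l for upACSS2 in hAD-tau, at -0.43, and for tau in upACSS2, at -0.47, and Rpl31 for tau in vector, at -0.46, with none of them past the threshold. The interaction of virus and tau called 0 members and 0% of genes by edgeR, and 0 members at an unadjusted p under 0.05 against 8.3% of all genes. DESeq2 also called no member in these comparisons.

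Stimulated cultures showed no called member in any of the 4 comparisons, with 74 members tested. Among all genes edgeR called 0.208% for upACSS2 in PBS, 0.937% for upACSS2 in hAD-tau, 3.02% for tau in vector and 0.208% for tau in upACSS2. The members' medians were 0.05, -0.07, 0.03 and -0.11, and 2, 1, 0 and 2 members had an unadjusted p under 0.05, against 15.9%, 20.4%, 24.3% and 14.3% of all genes. DESeq2 called 1 member for upACSS2 in hAD-tau and 0 in the other 3 comparisons, and its share of all genes is not given. Among members whose mean log2 CPM reached 3, Rps27l had both the highest value for upACSS2 in PBS, 0.30, and the lowest for tau in upACSS2, -0.38. The interaction called 0 members and 0% of genes by edgeR, 0 members by DESeq2, and 1 member at an unadjusted p under 0.05 against 14.3% of all genes.

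In cultures without virus hAD-tau against PBS called 0 of 75 members and 0% of 16341 genes by edgeR. DESeq2 called 2 members, and its share of all genes is not given. The median of the members was 0.15, 64 of 75 were above 0 against 51.4% of all genes, and 9 had an unadjusted p under 0.05 against 13.9%. Rps9, of the small subunit body, had 362, 366, 343 and 400.3 CPM with hAD-tau and 263, 298 and 226 CPM with PBS, with no overlap, and a log2 fold change of 0.49 (adjusted p = 0.31 by edgeR, SE 0.13). In all, 8 members were higher in every hAD-tau library than in every PBS library, where 6.91% of all genes were. PBS replicate 3 stood apart, with a mean log2 CPM of 6.85 against 6.29 and 6.35 in the other two. Its summed markers also differed from those of replicates 1 and 2, with 2288 CPM against 8572 and 10135 CPM for astrocytes, 90.7 CPM against 1702 and 2027 CPM for oligodendrocyte precursors, 6.18 CPM against 342 and 234 CPM for proliferating cells and 7188 CPM against 4443 and 4112 CPM for neurons. Their part in the result was not tested. Rpl35a, at -0.09 the lowest of the members whose mean log2 CPM reached 3, had 119 CPM in that library against 39.97 and 38.8 CPM. Without PBS replicate 3 the members' median was 0.37, and without PBS replicate 1 it was 0.03.

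The mouse comparisons ask whether upACSS2 moved these genes in the hippocampus. In aged mice 0 of 73 members and 0% of 15157 genes were called by edgeR. DESeq2 called no member in aged or 10-month mice, or in PS19 mice 1 month after injection. The median of the members was -0.10, 3 of the 73 were above 0 against 51% of all genes, and 6 had an unadjusted p under 0.05 against 5.58% of all genes. The mean log2 CPM over the 78 genes ran from 5.55 to 5.99 with upACSS2, with a median of 5.69, and from 5.36 to 5.94 with vector, with a median of 5.89, so the groups overlapped. Rpl39 was the lowest, with a lowest, median and highest value of 16.3, 30.1 and 35.1 CPM with upACSS2 and of 16.7, 36.2 and 42.4 CPM with vector, a log2 fold change of -0.28 (adjusted p = 0.90 by edgeR). The members' median was -0.02 among replicates 1 to 3 and -0.12 among replicates 4 to 12. Over both groups the summed endothelial markers ran from 129 to 199 CPM in replicates 1 to 3 and from 43.4 to 97.8 CPM in replicates 4 to 12. The part of these markers in the result was not tested.

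In 10-month mice 0 of 72 members and 0% of 13629 genes were called by edgeR. The median was -0.18, 2 of 72 members were above 0 against 48.6% of all genes, and 5 had an unadjusted p under 0.05 against 8.83% of all genes. Rpl39 was again the lowest of the members, with a lowest, median and highest value of 9.31, 15.4 and 20.8 CPM with upACSS2 and 14.5, 17.7 and 27.5 CPM with vector, and a log2 fold change of -0.33 (adjusted p = 0.60 by edgeR). The groups overlapped.

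In PS19 mice 1 month after injection 0 of 73 members and 0% of 15850 genes were called by edgeR. The median was -0.07, 0 members had an unadjusted p under 0.05 where 2.92% of all genes did, and among members whose mean log2 CPM reached 3 the highest and lowest values were 0.34 for Rpl29 and -0.22 for Rps24. At 6 months 0 members and 0% of genes were called, with 0 members by DESeq2 as well, and all 73 members were above 0, where 48.2% of all genes were, with a median of 0.36. An unadjusted p under 0.05 held for 45 of 73 members and for 14.1% of all genes. The mean log2 CPM was 5.69 ± 0.31 (SD, n = 5) with upACSS2 and 5.39 ± 0.15 (n = 5) with vector, and all 5 upACSS2 libraries lay above all 5 vector libraries.

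Single genes overlapped more. The 6 members whose groups did not overlap, Rps21, Rps15, Rpl3, Rpl6, Rpl38 and Rpl41, were all higher with upACSS2, where 1.31% of all genes were. Rps21 had 172, 179, 325, 174 and 176 CPM with upACSS2 and 153, 141, 153, 109 and 171 CPM with vector, a log2 fold change of 0.50, and the closest libraries differed by less than 1 CPM. Rpl29, a basic protein of the large subunit surface, had 22.4, 11.3, 36.6, 21.0 and 21.6 CPM with upACSS2 and 10.6, 19.9, 9.66, 13.5 and 9.45 CPM with vector, a log2 fold change of 0.84 (adjusted p = 0.22 by edgeR, SE 0.27), and the groups overlapped. Replicate 3 of the upACSS2 group was the highest library for both genes. Without it the members' median was 0.15 and 3 members had an unadjusted p under 0.05. In that library the mitochondrial transcripts took 7.62% of counts, against 3.82 to 4.80% in the other 4, and the mean log2 CPM of respiratory chain genes was 6.86 against 6.28 to 6.52. Choroid plexus markers summed to 127 to 5993 CPM in the upACSS2 group and to 82.2 to 450.3 CPM in the vector group. The part of these differences in the result was not tested.

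Between 1 and 6 months after injection, which is also between 3.5 and 8.5 to 9 months of age, members fell in vector PS19 mice. The comparison shares its 6-month vector libraries with the one above. Here 5 of 73 members fell and 0 rose (edgeR), where 2.87% of 15850 genes fell and 7.46% changed. The median was -0.32, 2 of 73 members were above 0 against 50.9% of all genes, and 36 had an unadjusted p under 0.05 against 25.1% of all genes. The groups did not overlap in 25 members, all lower at 6 months, where 4.66% of all genes were lower in this way. The mean log2 CPM was 5.66 ± 0.15 at 1 month and 5.39 ± 0.15 at 6 months (SD, n = 5 each), and all 5 later libraries lay below all 5 earlier ones.

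The 5 members that fell all belong to the small subunit. Over all tested members, however, the median log2 fold change was similar, at -0.34 for 31 small subunit genes and -0.31 for 42 large subunit genes. Rps14 had 311, 381, 284, 282 and 298 CPM at 1 month and 192, 174, 198, 186 and 216 CPM at 6 months, a log2 fold change of -0.69 (adjusted p = 0.026 by edgeR, SE 0.18). Rps18, of the subunit head (chr17:33951999-33956001, minus strand), had 72.9, 87.4, 62.4, 98.6 and 63.2 CPM and then 50.8, 41.1, 49.4, 46.1 and 58.3 CPM, a log2 fold change of -0.65 (adjusted p = 0.030 by edgeR). Rps7 (chr12:28630854-28635953, minus strand), which can bind the p53 regulator MDM2, had 94.1, 114, 92.7, 86.1 and 92.2 CPM and then 65.4, 59.1, 60.02, 69.2 and 68.0 CPM, a log2 fold change of -0.57 (adjusted p = 0.028 by edgeR). In each of these 3 genes every mouse at 6 months lay below every mouse at 1 month. Rps2 (chr17:24718116-24721929, plus strand), at the entry of the messenger channel, and Rps3 (chr7:99477896-99483738, minus strand), which also repairs DNA, were at -0.52 and -0.50.

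The count rested on single libraries. It was 0 without the 1-month replicates 1 or 2 or the 6-month replicate 4, 1 without the 6-month replicates 2 or 3, and 3 without the 1-month replicates 3 or 4. It was 24 when only these 10 libraries were fitted and 12 by DESeq2. The share of all genes called in these alternative fits is not given, so these counts have no background beside them. Of the other lists, 24 of 74 respiratory chain genes, 11 of 38 proteasome genes and 3 of 77 mitochondrial ribosomal protein genes fell, beside the 2.87% of all genes.

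Markers of other cell types moved between the same groups. The summed microglia markers had medians of 587 CPM at 1 month and 1189 CPM at 6 months, and 1 of the 10 was called higher. Their ranges overlapped, at 446 to 1436 CPM and 679 to 1632 CPM. Of the 4 markers of oligodendrocyte precursors 2 were called higher and 0 lower. The neuron markers summed to 11759 to 15136 CPM at 1 month, and at 6 months to 8386 and 9087 CPM in replicates 3 and 4 and to 12140 to 13081 CPM in replicates 1, 2 and 5. In replicate 3 the astrocyte markers reached 10872 CPM, where the 1-month libraries did not exceed 7105 CPM. The part of these markers in the result was not tested.

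In upACSS2 PS19 mice 0 of 73 members were called between the times, where 0.0442% of all genes were (edgeR, and 0 members by DESeq2), and the median was 0.10 (-0.08 without the 6-month replicate 3). Rps14, the leading gene of the vector mice, had 213, 224, 384, 267 and 330 CPM at 1 month and 220.0, 236, 415, 240.1 and 196 CPM at 6 months, and these ranges overlapped. An unadjusted p under 0.05 held for 2 members against 13.7% of all genes. The interaction of virus and time called 0 members and 0% of genes by edgeR, and 0 members by DESeq2. All 73 members were above 0 in it against 49.6% of all genes, with a median of 0.43, and 20 had an unadjusted p under 0.05 against 12.3% of all genes. The interaction includes the 6-month upACSS2 replicate 3, whose member mean stood far above the others of its group. Its values without that library are not given. The 1-month upACSS2 group differs in its dissection tag, as given above.

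**Figure D4:**
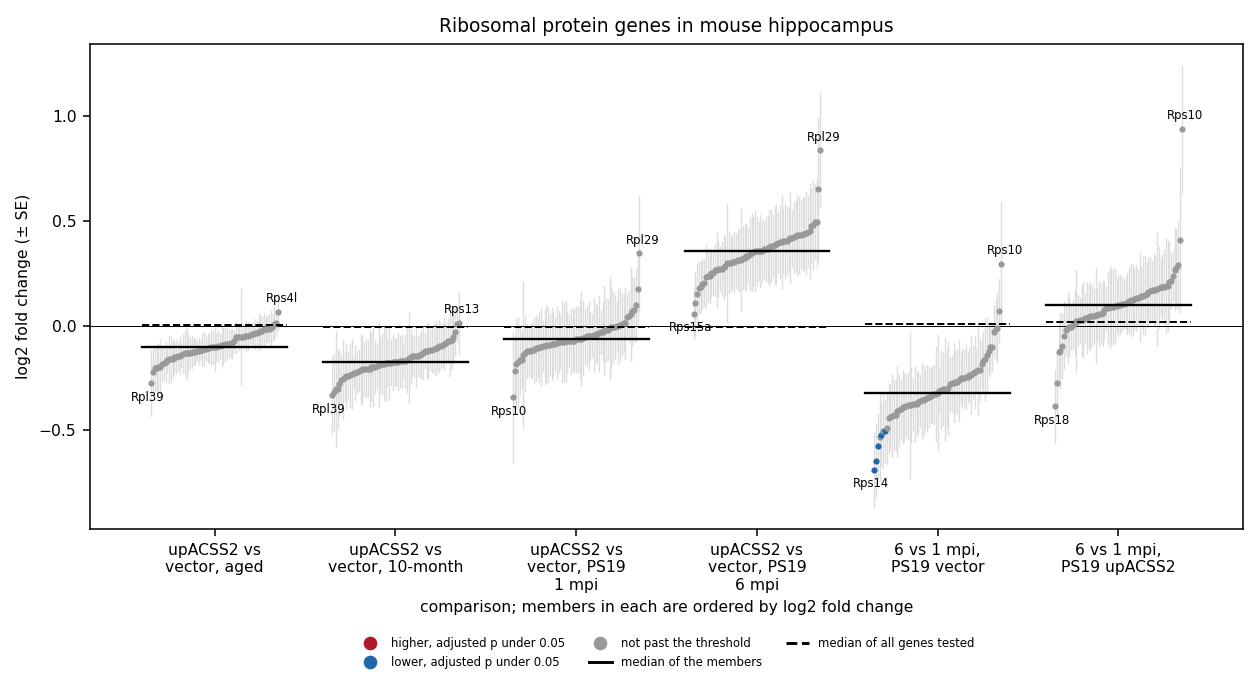
Log2 fold change with its SE for each tested member in the 6 mouse comparisons, in order of size, with colours and lines as in the plot of day 21 against day 9. Nearly all members lie below 0 in aged and 10-month mice and above 0 in PS19 mice 6 months after upACSS2 without passing the threshold, and the 5 blue points belong to 6 against 1 month in vector PS19 mice.

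Outside the list, each gene's log2 CPM was correlated with the members' mean over the 7 to 24 libraries of a table. Both were centred within groups, so differences between groups did not enter. The genes that tracked the mean best were chosen by the median of this correlation over the 6 tables. They were Rplp2, of the ribosomal stalk, at 0.95, the elongation factor subunit Eef1b2 at 0.94, Rpsa and the prefoldin subunit Pfdn5 at 0.93, Rps3a1, Fau and the mitochondrial import chaperone Timm8b at 0.92, and Snrpe, Cox6c and Uqcrh at 0.91. In single tables the correlation was as low as 0.32 for Snrpe, 0.35 for Timm8b, 0.51 for Cox6c, 0.58 for Uqcrh and 0.69 for Pfdn5. The lowest values of the other genes named ran from 0.80 for Fau to 0.92 for Eef1b2. Rplp2, Rpsa, Rps3a1 and Fau are ribosomal protein genes left out by the symbol pattern alone. By list the median correlation was 0.88 for the 10 ribosomal protein genes outside the pattern, 0.75 for 71 respiratory chain genes, 0.64 for 23 other TOP translation genes, 0.60 for the proteasome and 0.54 for the mitochondrial ribosome. It was 0.28 for ribosome biogenesis, -0.06 for TOR signalling and -0.25 for neuron markers, against -0.02 over 12611 other genes.

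Set beside one another, the medians of the lists showed which groups had values like those of the 78 genes. In PS19 mice at 6 months the median for upACSS2 against vector was 0.36 for the members, 0.34 for the ribosomal protein genes outside the pattern and 0.33 for the respiratory chain, against 0.15 for other TOP translation genes, 0.16 for the proteasome and 0.03 for ribosome biogenesis. For 6 against 1 month in vector PS19 mice, which share their 6-month vector libraries with that comparison, the medians were -0.32 for the members, -0.28 for those outside the pattern, -0.32 for the respiratory chain and 0.04 for ribosome biogenesis. In cultures without virus the respiratory chain had a median of -0.09 for hAD-tau where the members had 0.15.

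**Figure D5:**
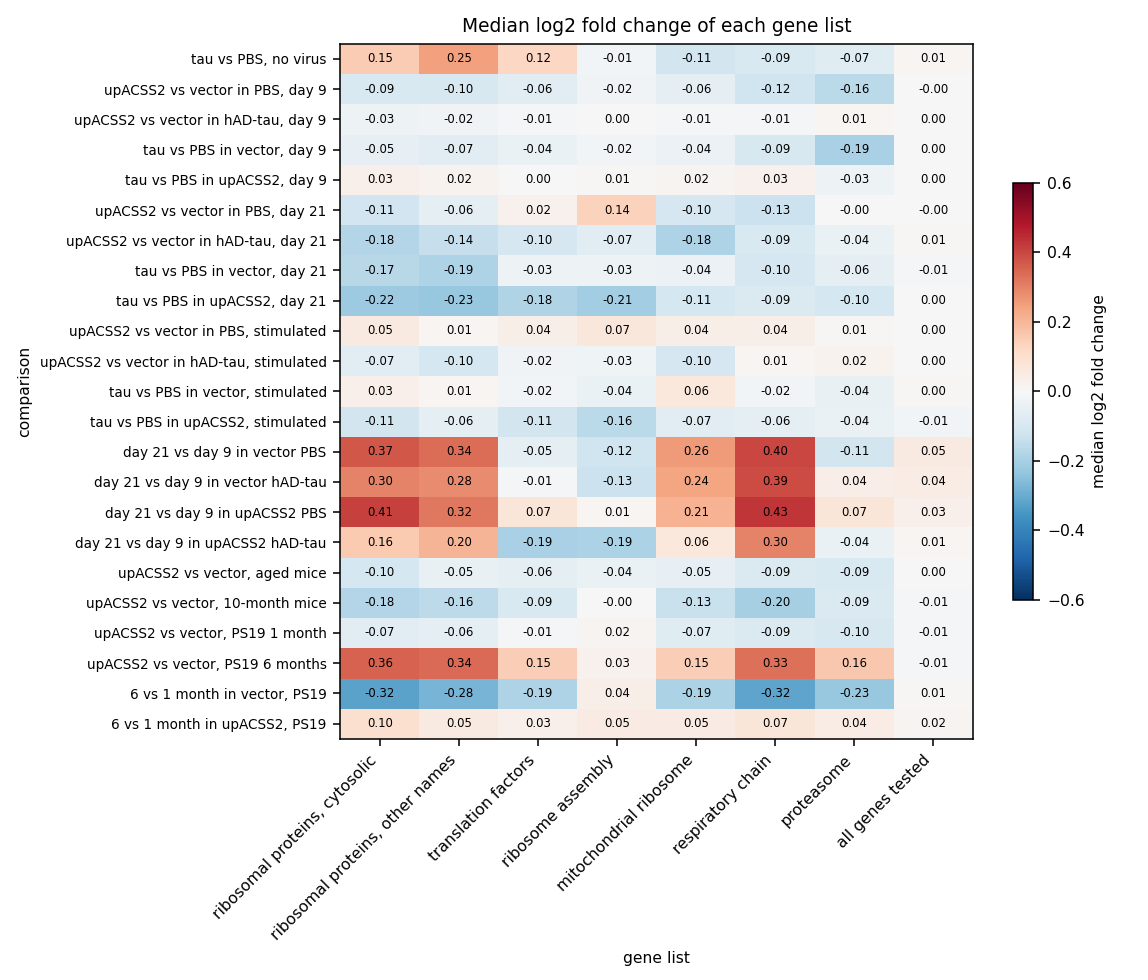
Median log2 fold change in each of the 23 comparisons (rows) of the 78 genes, 6 other gene lists and all genes tested (columns), as a colour scale with the value printed in each cell. For day 21 against day 9 in vector cultures with PBS, the ribosomal protein and respiratory chain columns show 0.37 and 0.40 and the ribosome assembly column -0.12.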

How the data were processed

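Gene counts as deposited were used, unnormalised whole numbers made by the authors; the submitters' processing notes name STAR, HTSeq, featureCounts, DESeq2 and the mm10 build, with no versions or order. Rows without a gene name held 6.13 to 8.74% of counts in the table without virus and were left out. edgeR 4.0.16 in R 4.3.3 was used for TMM normalisation, removal of low genes by group, quasi-likelihood F tests (two-sided) and Benjamini-Hochberg adjustment over all genes tested in a table, with a threshold of 0.05. Day 9 and day 21 were fitted apart (12 libraries each), since their spread differed, and together for day 21 against day 9. CPM are TMM-scaled, and log2 CPM used a prior count of 2. The tests were checked on simulated data for some of the comparisons, and recovery of changed genes was lowest for tau without virus.

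All 78 members entered the mean log2 CPM. The low-count filter left 72 to 75 members tested: Rpl10l, Rpl32l and Rpl39l were tested nowhere, Rpl3l was tested without virus and in stimulated cultures alone, Rpl26 was not tested in virus cultures, Rpl24 in mice or Rps10 in 10-month mice. Members named by value were the 3 highest and 3 lowest called in a comparison, or, where fewer than 3 were called, the highest and lowest among members whose mean log2 CPM reached 3 in the table, the paralog pairs, the members varying most or least, and those highest or lowest per kilobase, except that 1 member and 1 gene of another list are not reported here. Other members named in counts or because their groups did not overlap were chosen after their values were seen. The members, lists and rules were chosen with earlier results of these data known. No 2 libraries of a group were alike enough to be 1 library: over 242 pairs the smallest chi-square divided by the number of genes was 2.32. The labels do not say that culture libraries came from separate cultures, so p-values measure the spread between these libraries.

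Same-numbered libraries were checked for pairing. Every pair's deviations correlated over 0.1 for hAD-tau against PBS without virus (0.22 to 0.39), for upACSS2 against vector in stimulated hAD-tau cultures (0.11 to 0.36) and for hAD-tau against PBS in stimulated vector cultures (0.12 to 0.33). With the replicate block 0 members were called in each. Alternatives were DESeq2 1.42.0, limma 3.58.1 (voom), RLE size factors, TMM without the members, no low-count filter, the replicate block, other sets of libraries and each library left out. Leaving out 3 libraries rich in Rn45s was added after the data were seen.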

Additional observations from a re-analysis of the deposited data

Results flagged for a closer look

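Groups of 4 to 10 libraries were checked for a library far from the rest in the mean of the 78 genes and in the members that varied most. Of 34 checks 3 found one, and chance gives about 5%. All 3 were in PS19 mice. The mean log2 CPM of the members was 6.23 in replicate 3 of the upACSS2 group at 6 months, against 5.50 to 5.61 in the other 4. The log2 CPM of Rps29 was 4.08 in replicate 5 of the upACSS2 group at 1 month, against 3.33 to 3.54 in the others, and 2.23 in replicate 4 of the vector group at 6 months, against 3.37 to 3.70 in the others.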

How the results depend on the processing

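The mean log2 CPM difference of the members kept its direction, or moved by less than 1 SD, under every alternative run. A change of direction within 1 SD counted as kept, so not every direction held. The members' median log2 fold changes for upACSS2 at day 21 changed sign without the libraries rich in Rn45s. That for 6 against 1 month in upACSS2 PS19 mice changed sign without the 6-month replicate 3. Counts of members called moved by over 1.5 times as follows. DESeq2 called 2 members for tau without virus, 1 for upACSS2 in hAD-tau at day 9, 1 for it in stimulated cultures and 12 for 6 against 1 month in vector PS19 mice. Without the low-count filter there were 4 calls for upACSS2 in hAD-tau, 7 for tau in vector, 1 for tau in upACSS2 and 5 for the interaction at day 9, and 3 for the PS19 vector times. With only the groups compared there were 0 for tau in vector at day 9, 10 and 38 for day 21 against day 9 in vector and upACSS2 cultures with hAD-tau, and 24 for the PS19 vector times. Fitting all 24 unstimulated libraries gave 0 for upACSS2 in PBS and 0 for tau in vector at day 9, and 1 for upACSS2 in hAD-tau at day 21. Voom gave 10 for upACSS2 in PBS and 0 for tau in vector at day 9, and 30 for day 21 against day 9 in upACSS2 cultures with hAD-tau. Without the libraries rich in Rn45s that comparison gave 29, and the one in vector cultures with hAD-tau 9. Numbers that pair no samples gave, with the replicate block, 1 for upACSS2 in hAD-tau and 0 for tau in vector at day 9, and 3 for the PS19 vector times. The causes were not tested.

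With each library left out, the counts ranged from 8 to 25 for upACSS2 in PBS, 0 to 1 for upACSS2 in hAD-tau, 0 to 13 for tau in vector and 0 to 8 for the interaction at day 9. For day 21 against day 9 they ranged from 16 to 48 (vector, PBS), 7 to 42 (vector, hAD-tau), 21 to 56 (upACSS2, PBS) and 5 to 10 (upACSS2, hAD-tau), and for the PS19 vector times from 0 to 6. The share of all genes called in each of these alternative fits is not given.

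Uncalled members named by value changed sign in 18 cases. Rpl35a without virus was 0.10 with the replicate block and ran from -0.38 to 0.66 as single libraries were left out. The ranges were -0.012 to 0.29 for Rpl13 (upACSS2 in PBS), -0.61 to 0.0011 for Rps27l (upACSS2 in hAD-tau) and -0.048 to 0.26 for Rpl4 (tau in vector) at day 21. In stimulated cultures they were -0.0023 to 0.21 for Rps2 (upACSS2 in hAD-tau), -0.0077 to 0.057 for Rps21 (tau in upACSS2) and -0.030 to 0.22 for Rps15a (interaction). In aged replicates 1 to 3 Rps4l was -0.14 and Rpl39 0.13. Rps13 in 10-month mice was -0.028 with the block and ranged from -0.086 to 0.099, and Rps15a in PS19 mice at 6 months ranged from -0.085, without upACSS2 replicate 3, to 0.16. The biological coefficient of variation over all genes was 0.042 at day 9 and 0.19 at day 21.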
